A study of Homo sapiens with 4 samples.

Results

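Base excision, nucleotide excision and mismatch repair were followed through 36 genes chosen by symbol, out of 36601 genes listed in the deposited matrices. All 36 symbols were found, 17 of them in base excision repair, 13 in nucleotide excision repair and 4 in mismatch repair, together with MGMT and NUDT1, which belong to none of these. The cells were BEAS-2B, human bronchial epithelial cells immortalized with an adenovirus-SV40 hybrid virus. They received no radiation (control) or 10 mGy, 100 mGy or 1 Gy of gamma rays from caesium-137, at 100 mGy per min, and were cultured for 30 min before single-cell 3′ RNA sequencing. Each dose had 1 library, so that an effect of dose cannot be told apart from a difference between libraries. No test between doses was possible, and the data cover 1 cell line at 1 time.

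These pathways mend damage to single DNA strands. In base excision repair a glycosylase removes a damaged base, an AP endonuclease cuts the strand there, and a polymerase and a ligase refill and seal the gap. Ionizing radiation makes oxidized bases and single-strand breaks, which are substrates of this pathway. Nucleotide excision repair cuts out a short stretch around a bulky lesion, found either by sensors across the genome or by a stalled RNA polymerase. Mismatch repair removes bases that were mispaired in replication. MGMT takes alkyl groups directly off guanine, and NUDT1 (MTH1) hydrolyses oxidized purine nucleotides before they enter DNA.

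In the droplet method used, a cell receives a barcode, and a captured transcript molecule receives a unique molecular identifier (UMI). Levels are UMIs summed over all barcodes of a library per 1000000 UMIs of that library (CPM), and a level of this kind does not tell fewer expressing cells from less RNA per cell. The libraries held 211752280 to 285806026 UMIs over 11111 to 21514 barcodes, and a member had 510 to 71841 UMIs in a library. All 36 members had a mean of at least 1 CPM, the minimum for the 12879 genes tested. Low-UMI barcodes, those under the library's median UMI count divided by 3, were 19.6% of barcodes in the control and 41.4%, 27.4% and 25.4% after 10 mGy, 100 mGy and 1 Gy. Ribosomal protein genes took 14% of UMIs in the control and at 1 Gy, 20% at 10 mGy and 21.8% at 100 mGy. Between 76 and 134 barcode sequences were shared by any pair of libraries, at most 0.864% of a library. Of the epithelial markers, KRT7, KRT8 and KRT18 lay between 219 and 645 CPM, while KRT19 was at 1.72 to 2.41 CPM, EPCAM at 0.902 to 1.17 CPM and CDH1 at 0.0205 to 0.049 CPM. The leukocyte and endothelial markers were at 0 to 1.51 CPM. Among the fibroblast markers COL1A1 lay at 20.5 to 25.6 CPM and the other 3 at 0.0105 to 0.113 CPM.

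The promoters of 3 members are shown because MSH6 and NEIL3 differed most between groups of cells at different points of the cell cycle, and because MSH3 takes the same place as MSH6 in mismatch recognition but was not called there. They come from RefSeq (GRCh38.p14), which matched 33 of the 36 members, and run from 250 bases before to 50 bases after the gene start. MSH6 lies at chr2:47782895-47783194, MSH3 at chr5:80654402-80654701 and NEIL3 at chr4:177309624-177309923, all on the + strand. Capitals mark an E2F-type motif (TTTCCCGC, TTTGGCGC, TTTCGCGC or TTTGCCGC) in MSH6 and MSH3 and the CHR motif (TTTGAA) in NEIL3, searched on both strands.
MSH6: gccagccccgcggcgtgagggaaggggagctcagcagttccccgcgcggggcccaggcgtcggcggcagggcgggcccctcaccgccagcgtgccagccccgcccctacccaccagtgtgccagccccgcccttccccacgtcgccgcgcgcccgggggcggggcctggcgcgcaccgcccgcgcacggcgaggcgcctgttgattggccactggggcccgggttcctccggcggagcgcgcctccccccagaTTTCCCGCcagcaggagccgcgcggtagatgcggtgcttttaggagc
MSH3: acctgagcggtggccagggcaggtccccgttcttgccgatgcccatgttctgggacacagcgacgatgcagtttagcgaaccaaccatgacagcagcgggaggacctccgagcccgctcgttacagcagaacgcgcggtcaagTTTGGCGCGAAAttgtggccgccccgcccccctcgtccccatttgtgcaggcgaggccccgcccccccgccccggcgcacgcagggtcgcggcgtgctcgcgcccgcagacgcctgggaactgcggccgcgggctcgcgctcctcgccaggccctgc
NEIL3: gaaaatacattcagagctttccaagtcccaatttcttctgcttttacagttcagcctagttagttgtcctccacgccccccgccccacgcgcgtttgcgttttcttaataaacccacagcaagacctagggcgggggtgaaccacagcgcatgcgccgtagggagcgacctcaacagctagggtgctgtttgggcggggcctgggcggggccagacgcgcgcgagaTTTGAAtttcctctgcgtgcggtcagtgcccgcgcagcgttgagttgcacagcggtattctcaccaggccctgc
The MSH6 match covers positions 3 to 10 after the gene start, and the NEIL3 match starts 24 bases before it. In MSH3, matches to TTTGGCGC on the + strand and to TTTCGCGC on the other strand overlap, so that 1 run of capitals holds both. An E2F-type motif was present in 4 of the 33 matched promoters (MSH3, MSH6, PMS2 and XPC) and in 3.31% of all 35116 promoters of this length. The CHR motif was present in 6 (DDB2, ERCC1, ERCC6, MUTYH, NEIL3 and XRCC1) and in 15.2% of all promoters. A match is a string of letters and was not tested as a binding site. The motifs and the promoters shown were chosen after the values were seen.

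The first comparison set each irradiated library beside the control. At 10 mGy, 7 of the 36 members were over 1.2-fold higher and 16 over 1.2-fold lower, a fold that the study also used. Of all genes tested, 15.2% were higher and 53.4% lower at that fold. At 100 mGy, 5 members were higher and 18 lower, against 12.6% and 60.9% of all genes. At 1 Gy no member passed the fold in either direction, while 3.14% of all genes were higher and 1.42% lower. The members had a median log2 ratio of -0.20 after 10 mGy, -0.27 after 100 mGy and -0.01 after 1 Gy, beside -0.31, -0.41 and 0.02 for all genes tested. The members thus lay in a library-wide shift at both low doses, with 15 of 36 below the median of all genes at 10 mGy and 14 at 100 mGy.

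In the 3 pathways the order of the medians per library total was the same at both low doses. Base excision members had a median log2 ratio of -0.19 at 10 mGy and -0.26 at 100 mGy. Nucleotide excision members had -0.25 and -0.31, and mismatch members -0.48 and -0.60. By count, 3 of 17 base excision members were over 1.2-fold higher and 7 lower at 10 mGy, and 3 higher and 8 lower at 100 mGy. For nucleotide excision repair the counts were 2 higher and 6 lower of 13 at 10 mGy, and 0 higher and 7 lower at 100 mGy. In mismatch repair 3 of 4 were lower and 0 higher at each low dose. MGMT and NUDT1 were both higher at both low doses. Scaling by the median ratio of all genes, which moves the median of all genes to 0.00, moved the split of the 36 members to 12 higher and 8 lower at 10 mGy and to 12 higher and 6 lower at 100 mGy. All genes moved with it by construction, to 30.5% higher and 28% lower at 10 mGy and 31.4% and 29.5% at 100 mGy. On that scale the medians of base and nucleotide excision members were 0.12 and 0.06 at 10 mGy and 0.15 and 0.10 at 100 mGy, whereas those of mismatch members remained below 0 at -0.17 and -0.19. The order of the pathways did not hold after adjustment for exonic length, as given below.

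**Figure D1:**
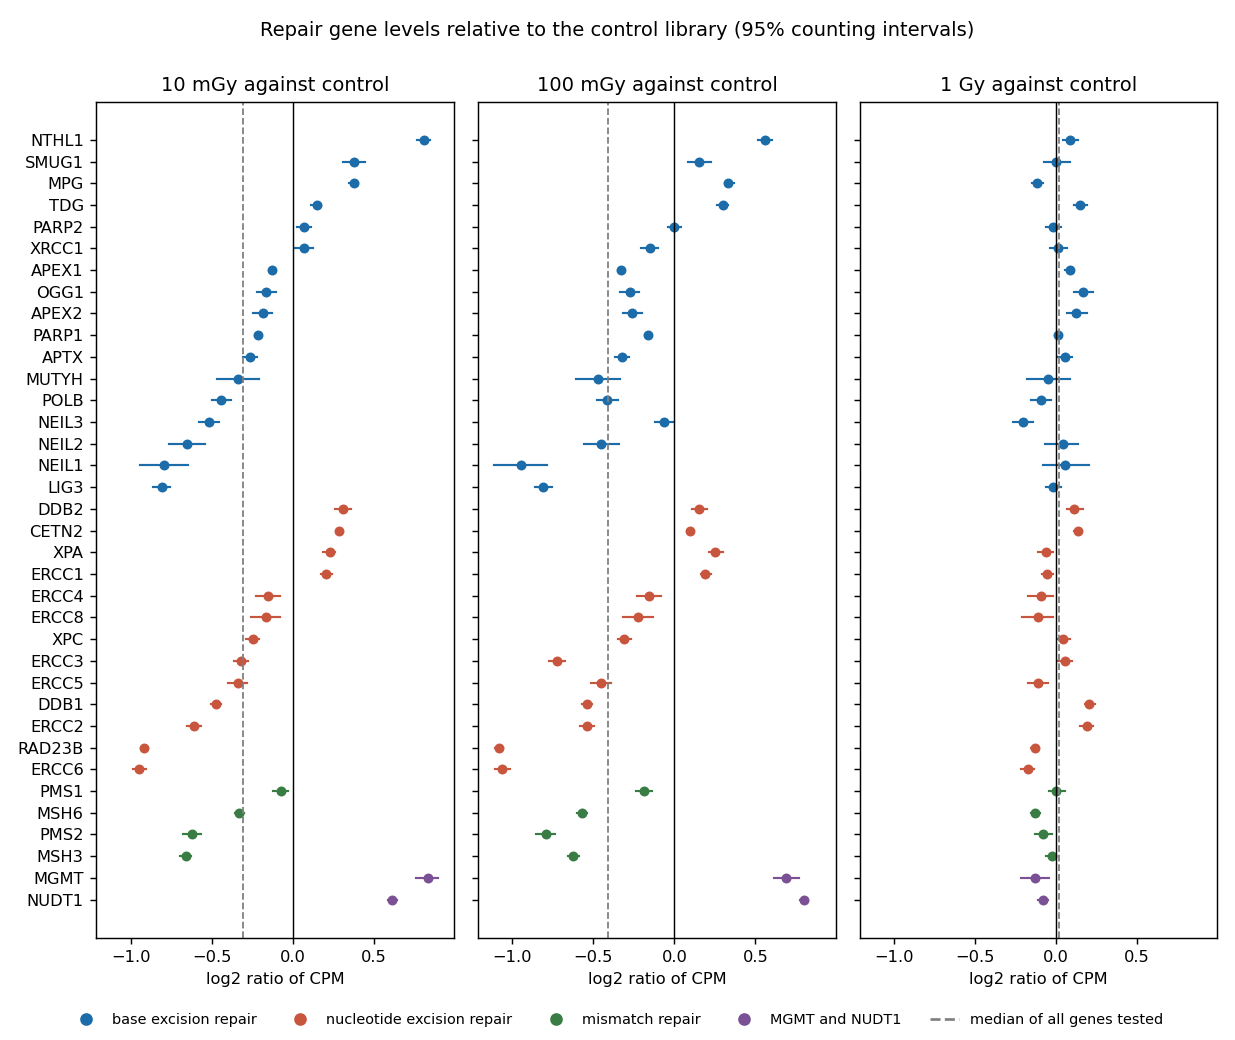
Log2 ratio of CPM of the 36 repair genes (vertical axis) in the 10 mGy, 100 mGy and 1 Gy libraries over the control library (horizontal axes). Points are ratios, bars are exact 95% counting intervals, colours are pathways and the dashed line is the median of all genes tested, at -0.31, -0.41 and 0.02. At the low doses the members spread from -1.08 to 0.83, and at 1 Gy from -0.20 to 0.21.

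The 1 Gy library lay close to the control for these genes although it received the highest dose. In 23 of 36 members (63.9%) both low-dose libraries lay below the control and below 1 Gy, as in 67.8% of all genes tested. In 9 members (25%) both lay above them, as in 18.7% of all genes. No member went down or up at every step of dose, where 41 of the 12879 genes tested went down and 49 up. Since low-dose ratios went with exonic length, some are also given after length adjustment. In it, the median log2 ratio of the genes in the same of 10 bins of exonic length is subtracted. Exonic length counts the bases in any annotated exon of a gene, so it can exceed the length of each single transcript. The intervals below are exact 95% intervals of a ratio of counts and cover counting error only. For members with many UMIs, they exclude a ratio of 1 even where the difference is a few percent, and they say nothing of how much replicate cultures would vary.

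Among the glycosylases, NTHL1, which removes oxidized pyrimidines, stood highest against the control per library total. After length adjustment SMUG1 stood above it at 10 mGy, with log2 ratios of 0.78 against 0.74. At 100 mGy TDG and SMUG1 then did, with 0.70 and 0.66 against 0.56. NTHL1 was at 30.9 CPM in the control, 54.2 after 10 mGy, 45.5 after 100 mGy and 32.8 after 1 Gy. This was 1.75 times the control level (1.70 to 1.80) after 10 mGy and 1.47 times (1.43 to 1.52) after 100 mGy. It remained over 1.2-fold higher at both low doses in each of the 9 settings of scaling and barcode choice, the main one included. Some of these could do little to change its call. Leaving out low-UMI or very deep barcodes, and a filter on genes and mitochondrial share, moved no member's ratio beyond its counting interval. Median ratio scaling, and totals that omit ribosomal protein and mitochondrial genes, raised all low-dose ratios alike and so could not undo an upward call. SMUG1, a uracil glycosylase, was at 13.1 CPM in the control, 17.1 after 10 mGy, 14.6 after 100 mGy and 13.2 after 1 Gy, and was past the fold at 10 mGy alone. MPG, which removes alkylated purines, had 75.4, 97.7, 95.2 and 69.6 CPM in the same order of libraries, with ratios of 1.30 and 1.26 at the low doses, within the fold after length adjustment. TDG, which acts on thymine or uracil paired with guanine, had 46.9, 51.9, 57.6 and 52.1 CPM, and reached 1.23 times the control at 100 mGy (1.2 to 1.26). All 4 of these were above the control at both low doses in every setting.

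The NEIL family, which also removes oxidized bases, lay on the other side at 10 mGy. NEIL1 was at 4.03 CPM in the control, 2.32 after 10 mGy, 2.09 after 100 mGy and 4.19 after 1 Gy. NEIL2 was at 6.99, 4.45, 5.12 and 7.17 CPM. Both low-dose libraries were thus below the control and 1 Gy for both genes, and NEIL1 remained past the fold at both low doses in all 9 settings. NEIL3, the member of the family that is expressed in dividing cells, was at 21.8, 15.2, 20.9 and 19.0 CPM, with a ratio of 0.698 (0.670 to 0.728) at 10 mGy and 0.958 (0.921 to 0.997) at 100 mGy. Median ratio scaling brought NEIL3 at 10 mGy to -0.21 on the log2 scale and NEIL2 at 100 mGy to -0.04, both within the fold. NEIL3 at 100 mGy ran from -0.06 to 0.35 over the 9 settings and so had no fixed side. OGG1, which removes 8-oxoguanine, was at 21.9, 19.6, 18.1 and 24.5 CPM, and MUTYH, which removes adenine paired with 8-oxoguanine, at 4.51, 3.57, 3.25 and 4.36 CPM. OGG1 was past the fold at 100 mGy alone, with a log2 ratio of -0.28, which turned to 0.13 under median ratio scaling and to 0.38 after length adjustment. At each low dose 3 of the 9 glycosylases were over 1.2-fold higher and 4 lower. This was 33.3% and 44.4%, beside 15.2% and 53.4% of all genes at 10 mGy and 12.6% and 60.9% at 100 mGy, differences that were not tested.

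Of the AP endonucleases, 1 of 2 passed the fold, at 100 mGy alone. APEX1, the main enzyme of this step, was at 193 CPM in the control, 176 after 10 mGy, 153 after 100 mGy and 204 after 1 Gy, with a ratio of 0.796 (0.784 to 0.807) at 100 mGy. APEX2 was at 21.9, 19.2, 18.3 and 23.9 CPM and stayed within the fold at each dose. Of the sensors of strand breaks, PARP1 had 209, 180, 187 and 211 CPM and PARP2 38.1, 40.1, 38.2 and 37.5 CPM, both within the fold at each dose. The log2 ratio of APEX1 at 100 mGy, -0.33, was also -0.33 after length adjustment, but turned to 0.08 under median ratio scaling. Length adjustment turned PARP1 from -0.22 to 0.24 at 10 mGy and from -0.16 to 0.42 at 100 mGy, and brought PARP2 to 0.26 and 0.27, so that both were past the fold upward at 100 mGy.

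LIG3, the ligase that seals the gap, was lower at both low doses. Its level was 33.2 CPM in the control, 19.0 after 10 mGy, 18.9 after 100 mGy and 32.8 after 1 Gy, a ratio of 0.571 at each low dose (0.551 to 0.592 and 0.550 to 0.592). XRCC1, the scaffold protein that binds LIG3, was at 26.2, 27.5, 23.6 and 26.5 CPM and within the fold at every dose. After length adjustment the log2 ratio of LIG3 was -0.18 at 10 mGy and -0.03 at 100 mGy, both within the fold, and that of XRCC1 was 0.26 and 0.12. POLB, the gap-filling polymerase, was at 20.9, 15.4, 15.7 and 19.6 CPM, giving 0.737 (0.707 to 0.769) and 0.751 (0.719 to 0.784) times the control at the low doses, but -0.25 and -0.14 on the log2 scale after length adjustment, within the fold. APTX, which clears abortive ligation products, was at 39.9, 33.2, 31.8 and 41.5 CPM, and its log2 ratio of -0.27 at 10 mGy turned to 0.04 under median ratio scaling.

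In nucleotide excision repair, RAD23B lay furthest from the control among the genes that sense damage across the genome. RAD23B, which stabilizes XPC, was at 198 CPM in the control, 105 after 10 mGy, 93.5 after 100 mGy and 180 after 1 Gy. It was thus at 0.530 times the control (0.522 to 0.538) after 10 mGy and 0.473 times (0.465 to 0.481) after 100 mGy, past the fold in all 9 settings. XPC, which binds the distorted helix, was at 49.6, 41.7, 40.0 and 51.3 CPM and passed the fold at 100 mGy alone, with a ratio of 0.807 (0.785 to 0.830). On the log2 scale this -0.31 turned to 0.10 after length adjustment and under median ratio scaling. CETN2, the third partner of that complex, was at 206, 251, 220 and 226 CPM. At 10 mGy CETN2 was thus 1.22-fold higher (1.21 to 1.23) while RAD23B was lower. After length adjustment CETN2 was at 0.22 on the log2 scale, within the fold and still on the other side of RAD23B at -0.63.

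Opposite sides were also seen in the complex that recognizes ultraviolet damage. DDB1 was at 91.2 CPM in the control, 65.6 after 10 mGy, 62.8 after 100 mGy and 105 after 1 Gy. DDB2, its damage-binding partner and a known p53 target, was at 27.3, 34.0, 30.4 and 29.6 CPM. DDB1 was lower and DDB2 higher than the control at 10 mGy, with ratios of 0.719 (0.705 to 0.734) and 1.24 (1.2 to 1.28). After length adjustment the log2 ratio of DDB1 turned from -0.48 to 0.15, on the same side as DDB2 at 0.60. Of 18 p53 target genes listed, 3 were over 1.2-fold higher and 10 lower at 10 mGy, and 2 higher and 12 lower at 100 mGy. These 55.6% and 66.7% lower lay near the 53.4% and 60.9% of all genes tested.

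ERCC6 (CSB), which acts at stalled RNA polymerase, was among the lowest ratios of the whole set. It was at 52.1 CPM in the control, 27.0 after 10 mGy, 24.9 after 100 mGy and 46.1 after 1 Gy, a ratio of 0.519 (0.504 to 0.534) and 0.479 (0.464 to 0.494) at the low doses. ERCC8 (CSA), its counterpart, was at 8.96, 7.97, 7.65 and 8.28 CPM and within the fold at each dose. ERCC6 was past the fold in all 9 settings. After length adjustment its log2 ratio went from -0.95 to -0.32 at 10 mGy and from -1.06 to -0.28 at 100 mGy.

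The helicases of TFIIH, which open the DNA around a lesion, were both lower per library total, but neither call held after length adjustment. ERCC2 (XPD) was at 44.4 CPM in the control, 29.1 after 10 mGy, 30.6 after 100 mGy and 50.6 after 1 Gy. ERCC3 (XPB) was at 37.3, 29.9, 22.6 and 38.8 CPM. Length adjustment gave log2 ratios of -0.21 and -0.03 for ERCC2 and of 0.20 and -0.07 for ERCC3 at the low doses. XPA, which verifies the lesion, lay the other way at 39.4, 46.1, 46.9 and 37.6 CPM, within the fold at each dose. Among the nucleases, ERCC1 was at 76.9, 88.6, 87.9 and 74.1 CPM, and its partner ERCC4 (XPF) at 13, 11.7, 11.7 and 12.2 CPM. Both stayed within the fold, on opposite sides of the control at the low doses, which depended on the scaling: after length adjustment both were past the fold upward, ERCC1 at 0.54 and 0.63 and ERCC4 at 0.37 and 0.50. ERCC5 (XPG), which makes the other cut, was at 21.9, 17.3, 16.0 and 20.2 CPM, and the ratios were 0.790 (0.759 to 0.823) and 0.731 (0.701 to 0.763) at the low doses. After length adjustment they turned to log2 ratios of 0.18 and 0.21.

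**Figure D2:**
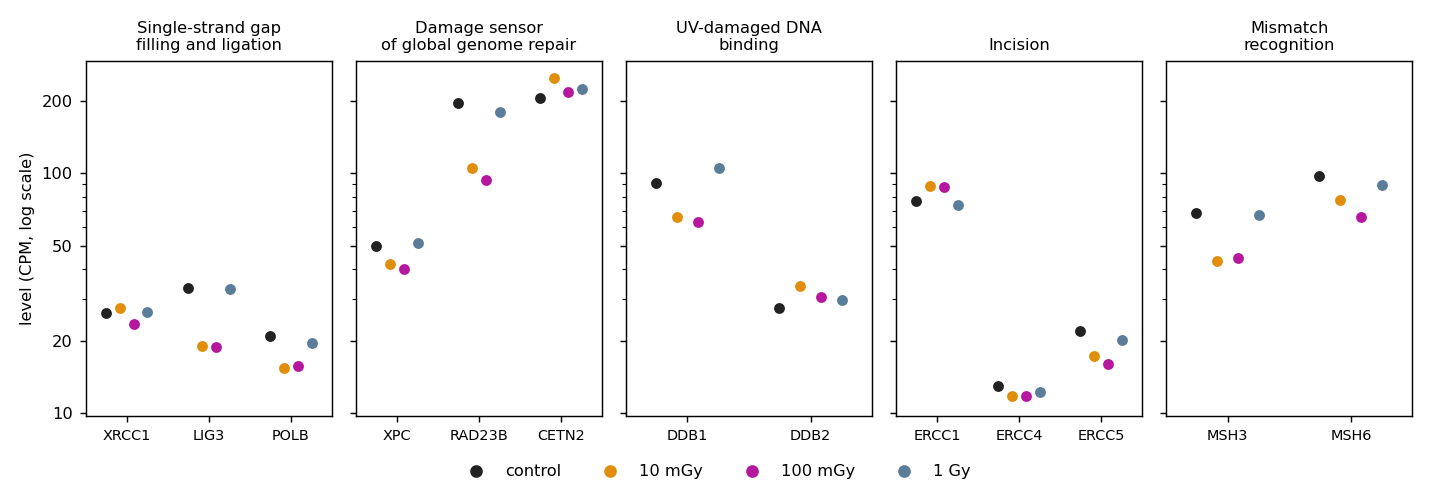
Level of 13 repair genes in CPM (log scale, vertical axis) in the 4 libraries, grouped by shared complex or step (panels). Points are library values, and the bars, often hidden by the points, are exact 95% counting intervals. LIG3, POLB, XPC, RAD23B, DDB1, ERCC4, ERCC5, MSH3 and MSH6 are lower in both low-dose libraries than in the control and at 1 Gy. XRCC1, CETN2, DDB2 and ERCC1 are not.

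Mismatch repair was lower in 3 of its 4 members at both low doses per library total, and after length adjustment in 2 at 10 mGy, where 1 was higher, and in 1 at 100 mGy. Of all genes, 53.4% and 60.9% were lower per library total, and 25% and 26.2% after length adjustment, and 4 members are too few to set apart from these shares. MSH3, which with its partner recognizes larger loops, was at 68.4 CPM in the control, 43.2 after 10 mGy, 44.4 after 100 mGy and 67.1 after 1 Gy. MSH6, which with the same partner recognizes single mispairs, was at 97.3, 77.4, 65.6 and 89.1 CPM. The low-dose ratios were 0.632 (0.617 to 0.647) and 0.649 (0.633 to 0.666) for MSH3, and 0.795 (0.780 to 0.811) and 0.674 (0.660 to 0.688) for MSH6. After length adjustment MSH3 was at -0.38 and -0.22 on the log2 scale and MSH6 turned to 0.30 and 0.21. PMS2, the endonuclease subunit that nicks the new strand, was at 28.2, 18.3, 16.3 and 26.7 CPM and past the fold at both low doses in all 9 settings. PMS2 has near-identical pseudogene copies, and how reads shared with them were counted is not given in the sources used here. PMS1, a related MutL protein, was at 31.9, 30.2, 27.9 and 32.0 CPM and within the fold.

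MGMT and NUDT1 had some of the highest ratios. MGMT was at 10.8 CPM in the control, 19.1 after 10 mGy, 17.4 after 100 mGy and 9.83 after 1 Gy, and NUDT1 at 79.3, 121, 138 and 75.1 CPM. For MGMT the low-dose ratios were 1.78 (1.69 to 1.86) and 1.61 (1.53 to 1.70), and for NUDT1 1.53 (1.5 to 1.56) and 1.74 (1.71 to 1.77). In both genes the low-dose libraries lay above the control and 1 Gy. With NTHL1, they were the 3 members past the fold upward at both low doses in all 9 settings, and NEIL1, RAD23B, ERCC6 and PMS2 were the 4 past it downward. These were 8.33% and 11.1% of the members, beside 8.31% and 15% of 12808 genes, shares near those of genes overall. Some of the 9 settings could do little to change such calls, as described for NTHL1.

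The low doses were next set beside each other. Between 100 mGy and 10 mGy, 1 member was over 1.2-fold higher and 1 lower, against 2.41% and 18.7% of all genes tested. NEIL3 was the higher one, at 20.9 CPM against 15.2, a ratio of 1.37 (1.32 to 1.43). ERCC3 was the lower one, at 22.6 CPM against 29.9, a ratio of 0.756 (0.730 to 0.782). Of 33 mitosis marker genes, a list that NEIL3 is not on, 3 were higher and 18 lower than the control at 10 mGy, and 6 higher and 10 lower at 100 mGy, with medians of -0.33 and -0.14. That was 9.09% higher and 54.5% lower at 10 mGy, beside 15.2% and 53.4% of all genes, and 18.2% and 30.3% at 100 mGy, beside 12.6% and 60.9%. At 100 mGy against 10 mGy, 9 of the 33 were higher and 0 lower. The part of these markers in the NEIL3 difference was not tested. The study also used the dispersion of expression differences between cells, with no formula given for genes. For its simulated doses per nucleus it took the SD over the mean. Here the SD over the mean was taken on UMIs scaled to 10000 per barcode, a scaling that is not from the study. Of the 32 members with at least 10 CPM, NEIL3 alone had a lower value at 100 mGy (395%) than at 10 mGy (431%), as did 1.41% of 8507 genes. Thinning to 5000 UMIs left out the barcodes with fewer, 8953 at 10 mGy and 5679 at 100 mGy, so that depth and barcodes changed together. After thinning, 9 of the 32 members and 30.6% of genes had a lower value at 100 mGy. With unscaled UMIs of all barcodes, 13 members and 43.9% of genes did.

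Exonic length moved with the low-dose ratios, in the members as in all genes. Across the 36 members, the Spearman correlation of log2 ratio and exonic length was -0.43 for 10 mGy, -0.51 for 100 mGy and 0.05 for 1 Gy. Across 12808 genes it was -0.42, -0.45 and 0.01. These are correlations over genes that share the same libraries, and genes are not replicates. Median exonic length was 3909 bases in base excision, 5576 in nucleotide excision and 5081.5 in mismatch members, against 4922 over all genes with a length. With the genes in 10 bins of length with like numbers of genes, the bin of the shortest genes had a median log2 ratio of 0.17 at 10 mGy and that of the longest -0.63. The part of length, of the ribosomal protein share or of the low-UMI barcodes in the ratios was not tested. Without the low-UMI barcodes the count of members was again 7 higher and 16 lower at 10 mGy, and 5 higher and 19 lower at 100 mGy. All genes without them were 15.2% higher and 53.1% lower at 10 mGy, and 12.6% and 60.9% at 100 mGy.

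Set against the median of their own length bin, 10 members were over 1.2-fold higher and 7 lower at 10 mGy, and 11 higher and 6 lower at 100 mGy. Of all genes, 25.9% were higher and 25% lower at 10 mGy, and 26.7% and 26.2% at 100 mGy. Members past the fold upward after this adjustment but not per library total were OGG1, ERCC1 and ERCC4 at both doses, TDG and MSH6 at 10 mGy, and SMUG1, DDB2, PARP1 and PARP2 at 100 mGy. MGMT was 1.02 above the median of its bin on the log2 scale at 10 mGy, SMUG1 0.78, NTHL1 0.74 and DDB2 0.60. On the other side RAD23B was at a difference of -0.63, NEIL2 at -0.55 and PMS2 at -0.44. LIG3, one of the longest members at 12919 bases, had a difference of only -0.18, and MSH6, at 10993 bases, one of 0.30. The pathway medians after this adjustment were -0.08 for base excision, 0.17 for nucleotide excision and -0.06 for mismatch members at 10 mGy, and 0.12, 0.21 and 0.00 at 100 mGy, so that the order of the pathways did not hold.

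**Figure D3:**
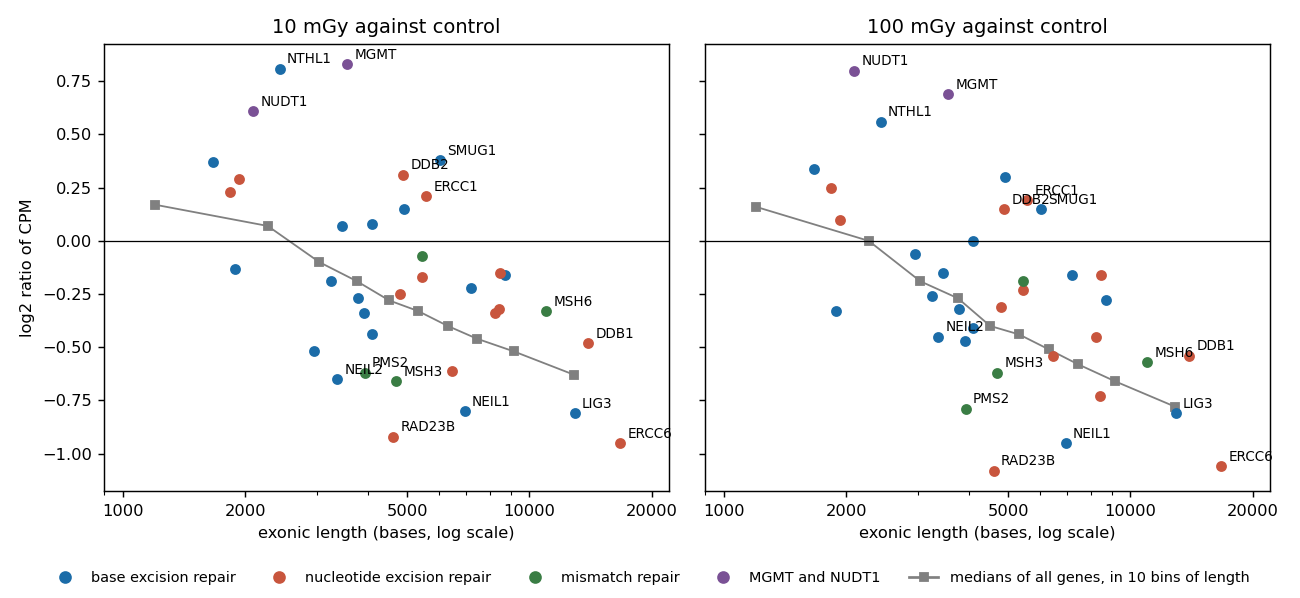
Log2 ratio of CPM to the control (vertical axis) against exonic length in bases (log scale, horizontal axis) for the 36 members at 10 mGy and 100 mGy. Circles are members, coloured by pathway, and grey squares are medians of all genes in 10 bins of length. The grey line falls from 0.17 to -0.63 at 10 mGy; MGMT, NTHL1, SMUG1 and DDB2 lie above it, and RAD23B, NEIL2 and PMS2 below.

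The members were then compared between cells at different points of the cell cycle within each library, where the 4 libraries serve as replicates at 4 doses. After low-UMI barcodes were left out, barcodes were classed by their share of UMIs in 29 replication and 33 mitosis marker genes, none of them a member. Replication-high barcodes were the top 25% for replication but not for mitosis markers, mitosis-high the reverse, and proliferation-low those at or below the median for both. In each library the median replication marker share was higher in proliferation-low than in mitosis-high barcodes, at 0.246% against 0.21% in the control. The median mitosis marker share of proliferation-low barcodes in the control, 0.407%, was near the 0.415% of replication-high barcodes. Each class is a range on a continuous score, with 2301 to 2941 barcodes of a library within 10% of the replication limit and 778 to 1373 of the mitosis limit. Mitosis-high barcodes were deeper, with median counts of 17621 to 25223 UMIs against 13672 to 19971 for proliferation-low. The test was the quasi-likelihood test of edgeR on summed UMIs with the library as a block, with Benjamini-Hochberg adjustment over all genes, and the CPM below use its TMM scaling. A gene was called at an adjusted p under 0.05 and over 1.2-fold.

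MSH6 and NEIL3 were higher in replication-high than in proliferation-low barcodes. These were 2 of 36 members, where 4.24% of all genes tested were called higher. MSH6 had 122 CPM against 90.1 in the control library, 123 against 86.4 at 10 mGy, 118 against 71.5 at 100 mGy and 112 against 81.6 at 1 Gy. The log2 difference was 0.53 (SE 0.04, edgeR adjusted p = 1.52e-12), upward in 4 of 4 libraries. NEIL3 had 17.6 against 13.4, 16.8 against 10.1, 23.8 against 17.6 and 14.8 against 12.7 CPM, a log2 difference of 0.45 (SE 0.06, edgeR adjusted p = 2.73e-07). SMUG1 was the 1 member called lower, where 2.7% of all genes were, at -0.28 (SE 0.05, edgeR adjusted p = 7.84e-05). Without the 100 mGy library its value was -0.22, no longer past the fold. MSH3, whose promoter holds the E2F-type letters shown above, was at 0.10 on the log2 scale (SE 0.03, edgeR adjusted p = 0.0175). It was upward in 4 of 4 libraries but not called, since it was within the 1.2-fold limit.

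Mitosis-high barcodes gave a different picture. Against proliferation-low barcodes, 2 members were called higher and 5 lower, beside 7.6% and 12.4% of all genes. NEIL3 had 25.4 CPM against 13.2 in the control, 22.3 against 10.0 at 10 mGy, 31.3 against 17.3 at 100 mGy and 21.7 against 12.5 at 1 Gy, a log2 difference of 0.93 (SE 0.05, edgeR adjusted p = 2.27e-15). ERCC5 was the other, at 0.35 (SE 0.05, edgeR adjusted p = 6.15e-07). MSH6 was lower, with 54.8 against 88.5, 51.2 against 85.6, 43.2 against 70.3 and 49.5 against 80.3 CPM, and its log2 difference was -0.71 (SE 0.03, edgeR adjusted p = 5.99e-18). Relative to proliferation-low barcodes, MSH6 was thus lower in mitosis-high and higher in replication-high barcodes, and NEIL3 was higher in both. The class levels of MSH6 did not overlap in either contrast. That reference class had a larger median share of replication markers than mitosis-high barcodes in each library. Of the 4 members with an E2F-type motif, MSH6 was called higher in replication-high barcodes, and MSH6 and XPC lower in mitosis-high barcodes. Among the 6 with a CHR motif, NEIL3 was called higher in both contrasts and ERCC6 lower in mitosis-high barcodes. No other member with either motif was called. The motifs were chosen after these values were seen, so these counts are no test of the motifs. The share called among all genes with a motif was not taken.

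APEX2, XPC, NEIL1 and ERCC6 were the other members lower in mitosis-high barcodes. APEX2 had a log2 difference of -0.43 (edgeR adjusted p = 3.01e-09), and its class ratio was 0.700 to 0.809 over the libraries. XPC was at -0.31 (edgeR adjusted p = 3.93e-09) with ratios of 0.775 to 0.824. NEIL1, which had 2.12 to 3.04 CPM in these barcodes, was at -0.38 (edgeR adjusted p = 0.00152), and ERCC6 at -0.27 (edgeR adjusted p = 5.13e-07). All 4 were lower in 4 of 4 libraries. ERCC6 was no longer past the fold without the control library, at -0.23. Most members, 33 of 36 in the replication contrast and 29 of 36 in the mitosis contrast, were not called. Of all genes tested, 4.24% were called higher and 2.7% lower in the replication contrast, and 7.6% and 12.4% in the mitosis contrast. Some members not called had an adjusted p under 0.05 but were within the fold. In the replication contrast these included NUDT1 (-0.20, edgeR adjusted p = 3.53e-05) and PARP2 (0.19, edgeR adjusted p = 9.34e-05).

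**Figure D4:**
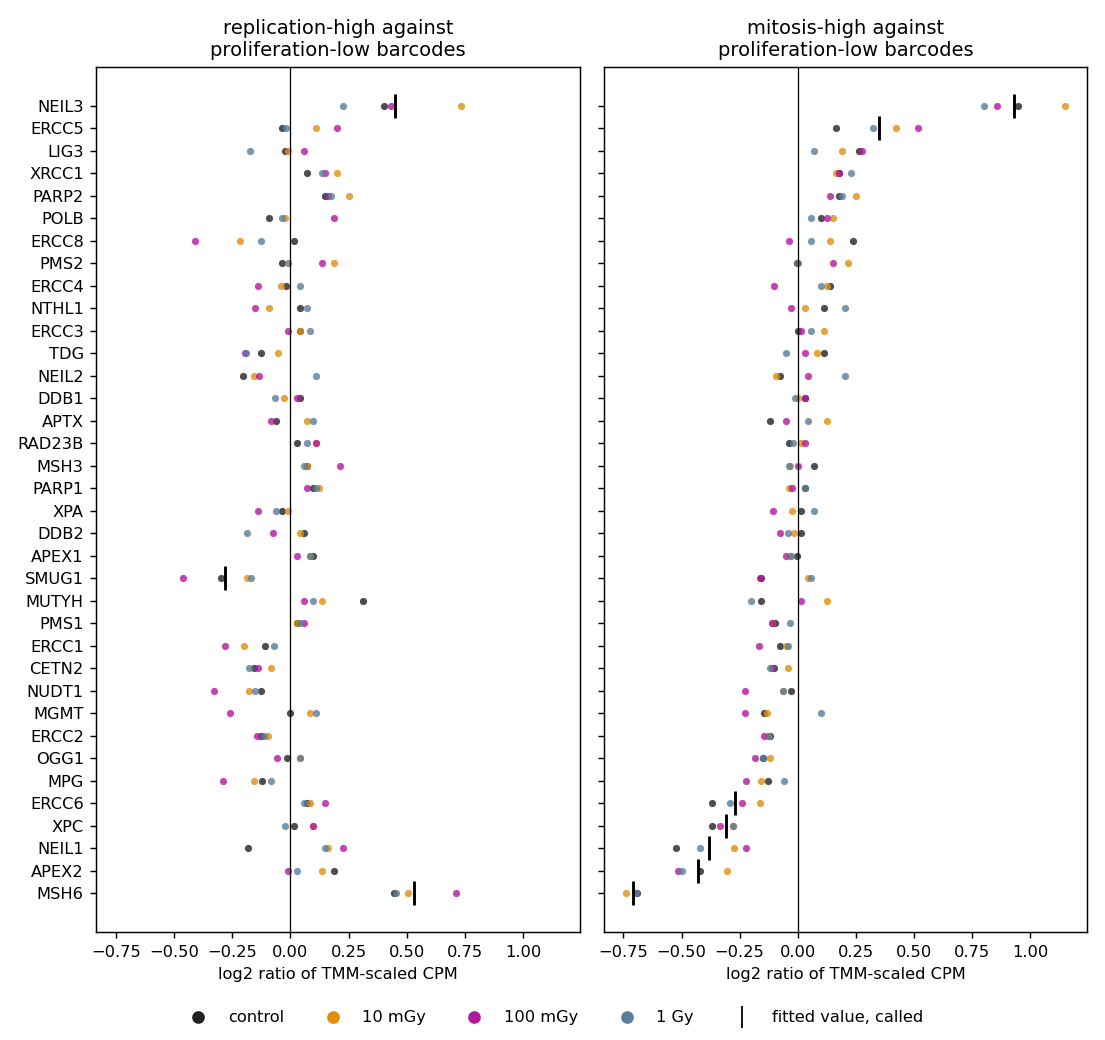
Log2 ratio of TMM-scaled CPM between classes of barcodes (horizontal axes) for the 36 members (vertical axis), ordered by the mitosis contrast. Circles are the 4 libraries, coloured by dose, and black bars are the fitted values of called members. MSH6 is at 0.53 in replication-high and -0.71 in mitosis-high barcodes, and NEIL3 at 0.45 and 0.93.

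The dose ratios were also taken within each class, an alternative added after the values were seen. Each class is a subset of the barcodes used above, so these ratios are no independent check of direction. At 10 mGy, 7 members were over 1.2-fold higher and 16 lower within replication-high barcodes, where 15.3% of all genes were higher and 51.5% lower. Within mitosis-high barcodes the counts were 8 and 13, beside 15.6% and 52%, and within proliferation-low barcodes 5 and 17, beside 15.5% and 54.6%. At 100 mGy they were 6 and 17 (13.1% and 57.6% of all genes), 5 and 16 (12.5% and 59.5%) and 6 and 18 (13.1% and 63.6%) in the same order of classes. At 1 Gy, 1 member was higher and 0 lower within replication-high (5.79% and 3.26%), 0 in either direction within mitosis-high (5.78% and 2.52%), and 1 higher and 1 lower within proliferation-low barcodes (8.92% and 5.02%).

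Of 44 partner genes of the 3 pathways that are not members, 43 passed the minimum, and 6 of them were over 1.2-fold higher and 13 lower at 10 mGy, with 7 and 16 at 100 mGy. That is 30.2% and 37.2% lower, beside 53.4% and 60.9% of all genes tested, a difference that was not tested. The partners had median log2 ratios of -0.06 and -0.13 at these doses, beside -0.31 and -0.41 for all genes tested. No partner ratio was adjusted for exonic length, which went with the low-dose ratios. PARG, which removes the poly(ADP-ribose) made by PARP1, was at 32.7 CPM in the control, 16.3 after 10 mGy, 15.4 after 100 mGy and 29.4 after 1 Gy. POLE, a replicative polymerase, was at 51.4, 27.0, 25.4 and 53.5 CPM, and EXO1, the exonuclease of mismatch repair, at 37.5, 23.5, 21.9 and 33.8 CPM. These were the 3 lowest ratios at 10 mGy among partners with at least 10 CPM. The 3 highest were RPA3, a subunit of the single-strand binding protein RPA, at 111, 210, 238 and 117 CPM, RBX1, the ring protein of cullin ligases, at 339, 583, 644 and 335 CPM, and POLD4, a small subunit of polymerase delta, at 37.1, 60.5, 52.4 and 39.5 CPM. In all 6, the 10 mGy and 100 mGy libraries lay on one side and the control and 1 Gy on the other. These 6 were picked by their 10 mGy ratio. Their exonic lengths were 5129 bases for PARG, 16609 for POLE, 4140 for EXO1, 3232 for RPA3, 3092 for RBX1 and 3049 for POLD4. Of all genes tested, 67.8% had both low doses below the control and 1 Gy, and 18.7% had both above.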

How the data were processed

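Gene expression of BEAS-2B cells was measured by single-cell RNA sequencing (Chromium 3′ version 3 kit) in 4 libraries, 1 per dose, grouped by the treatment label. The values deposited by the authors are raw UMI counts of genes in barcodes. The matrix header names Cell Ranger 7.0.1, and the submitters' processing notes name GRCh37, Cell Ranger and STAR with no role. Annotation and intronic counting: not given in the sources used here. Every deposited barcode was used, and doublets were kept with no caller run.

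UMIs were summed per library and scaled to CPM, with exact Poisson intervals. Ratios have exact conditional (Clopper-Pearson) 95% intervals, covering counting error only. Total counts of 211752280 to 285806026 per library keep these narrow, so that the lack of replicates limits the precision. The minimum for a gene was 1 CPM on average, and a gene over 1.2-fold from the control was counted, with no p-value. Exonic length, the union of all annotated exons of a gene, came from GENCODE 29, by gene identifier, for 99.4% of the genes tested and all members. It is of another build than GRCh37, so no coordinates were taken from it.

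Class contrasts used edgeR 4.0.16 in R 4.3.3 on summed counts with the library as a block. Their p-values set the class difference against its variation between the 4 libraries, and differences in level between libraries do not enter. Library numbers were not needed to pair samples, since both classes come from the same library. For simulated data of the replication contrast (12885 genes), edgeR called 50 of 50 genes at 1.5-fold, 48 of 50 at 0.667, 50 of 50 at 2-fold and 48 at 0.5, of which 50 were changed and 2 lost to the minimum, with 3 unchanged genes called. The dispersion and the spread between libraries were set there, not taken from the data. Changes near the 1.2-fold limit were not simulated, so how often such changes are called is not shown. For 10 mGy against control, 94% to 100% of simulated intervals held the true ratio. Those counts were drawn as Poisson, as the intervals assume, so this checks the calculation and not the spread of real counts. Python 3.11.15, numpy 2.4.6, scipy 1.17.1 and pandas 2.3.3 were used.

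Alternatives were the mean over barcodes of UMIs scaled to 10000, median ratio scaling, scaling with ribosomal protein genes and mitochondrially encoded genes left out, leaving out low-UMI barcodes or those above 3 times the median, thinning to 5000 UMIs, a barcode filter (200 genes, mitochondrial share up to 20%), length adjustment, minimums of 10 CPM and of none, and 1.5-fold. Thinning left out the barcodes with fewer than 5000 UMIs. For classes the alternatives were DESeq2 1.42.0, its size factors, the top 10% of the marker share, no block, and leaving out each library. Members with at least 10 CPM or over 1.5-fold were to be given with all 4 values. The members, lists and rules were chosen with earlier results of these data known.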

Additional observations from a re-analysis of the deposited data

Results flagged for a closer look

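In each class contrast the 4 library values of the log2 ratio of TMM-scaled CPM were checked for a value far from the other 3 (Dixon's test at its 95% critical value), over 72 groups of 4 libraries. Chance flags about 1 in 20 such groups, and 5 were found. Between replication-high and proliferation-low barcodes, MSH3 was at 0.22 in the 100 mGy library against 0.06 to 0.07 in the others. In the same contrast PARP2 was at 0.25 at 10 mGy against 0.16 to 0.17. Between mitosis-high and proliferation-low barcodes, XRCC1 was at 0.23 at 1 Gy against 0.17 in the others, and PMS1 at -0.03 at 1 Gy against -0.11 to -0.10. ERCC4 was at -0.10 at 100 mGy against 0.10 to 0.13, the one value on the other side of 0. None of these 5 was called in its contrast.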

How the results depend on the processing

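Of the counts, pathway medians and class calls, 191 values under an alternative stayed within the limits used (1.5 times for a count, the median interval bounds of the members for a median), 62 moved beyond them and 2 reversed. A median was counted as reversed only where the reported one was past 1.2-fold, and other medians that changed sign are among the 62. Leaving out low-UMI barcodes, the filter on genes and mitochondrial share, and removal of very deep barcodes moved no single member's dose ratio beyond its counting interval. What caused these changes was not tested. With median ratio scaling, members over 1.2-fold numbered 12 higher and 8 lower at 10 mGy (30.5% and 28% of all genes), 12 higher and 6 lower at 100 mGy (31.4% and 29.5%), and 3 higher between the low doses, where 7.07% of all genes were. On that scale the medians of base excision, nucleotide excision and mismatch members were 0.12, 0.06 and -0.17 at 10 mGy, 0.15, 0.10 and -0.19 at 100 mGy, and 0.03, 0.04 and -0.04 between the low doses, with -0.09 for nucleotide excision at 1 Gy. The nucleotide excision median at 100 mGy, -0.31 as reported, was thus reversed, and it was 0.21 after length adjustment. The base excision median at both low doses and the nucleotide excision median at 10 mGy also changed sign with median ratio scaling, as did both of these medians between the low doses. Length adjustment gave 7 lower at 10 mGy (25% of all genes), 11 higher and 6 lower at 100 mGy (26.7% and 26.2%) and 2 higher between the low doses, where 5.47% of all genes were. Its medians were -0.08, 0.17 and -0.06 at 10 mGy, 0.12, 0.21 and 0.00 at 100 mGy, and 0.01, 0.03 and -0.05 between the low doses. Scaling with ribosomal protein genes and mitochondrially encoded genes left out gave 9 higher at 100 mGy (16.8% of all genes), medians of -0.10, -0.16 and -0.39 at 10 mGy and of -0.14, -0.19 and -0.48 at 100 mGy, and -0.03 for nucleotide excision between the low doses. Means over barcodes of scaled UMIs gave a nucleotide excision median of -0.34 at 10 mGy, medians of -0.20, -0.40 and -0.65 at 100 mGy and 0.00 for nucleotide excision at 1 Gy, with 1 member lower at 1 Gy (3.66% of all genes), and 2 higher and 6 lower between the low doses (4.56% and 17.3%). Thinning to 5000 UMIs gave nucleotide excision medians of -0.20 at 10 mGy and -0.23 at 100 mGy, and 2 members lower between the low doses (20.1% of all genes), as did removal of very deep barcodes (2, with 18.6%). A minimum of 10 CPM gave -0.16 for base excision and -0.38 for nucleotide excision at 100 mGy, and 0.00 for nucleotide excision at 1 Gy. At 1.5-fold, 3 members were higher and 8 lower at 10 mGy, 2 higher and 7 lower at 100 mGy, and 0 in either direction between the low doses, beside 5.23% and 27%, 4.57% and 36%, and 0.241% and 2.38% of all genes.

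Of single members past the fold, the log2 ratio changed sign under median ratio scaling for OGG1 (0.13), APEX1 (0.08), APTX (0.08) and XPC (0.10) at 100 mGy and for APTX (0.04) at 10 mGy. After length adjustment it changed sign for OGG1 (0.38), XPC (0.10), DDB1 (0.24), ERCC5 (0.21) and MSH6 (0.21) at 100 mGy, and for DDB1 (0.15), ERCC3 (0.20), ERCC5 (0.18) and MSH6 (0.30) at 10 mGy. Members with a smaller spread between cells at 100 mGy than at 10 mGy numbered 9 with thinned and 13 with unscaled UMIs, against 1 as reported.

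Without the library as a replicate block, 0 members were called higher and 0 lower in replication-high barcodes (5 and 0 of 12942 genes; 1 member at an unadjusted p under 0.05), and 1 higher and 2 lower in mitosis-high barcodes (181 and 106 of 12835 genes), since the levels of the libraries then enter the spread. Both classes of a library come from the same culture, so that the block follows the design. Leaving out each library in turn gave 2 higher and 0 to 1 lower for replication-high (449 to 634 and 226 to 441 genes), and 2 higher and 4 to 5 lower for mitosis-high barcodes (944 to 1028 and 1484 to 1553 genes). With DESeq2 the counts were 2 higher and 1 lower (382 and 252 genes), and 2 higher and 5 lower (931 and 1297 genes). With the top 10% of the marker share they were 2 and 1 (860 and 678 of 12972 genes), and 3 and 6 (1526 and 2117 of 12802 genes). With thinned UMIs they were 3 and 1 (467 and 263 of 12970 genes), and 3 and 5 (938 and 1323 of 12875 genes). With no minimum the mitosis contrast gave 2 higher and 4 lower, beside 1229 and 1933 of 18391 genes. With 1 library per dose, no depth of sequencing gives an error for a dose effect.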
